A study of Mus musculus with 12 samples.

Results

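The 3 libraries of mouse muscle stem cells (MuSCs) that were compressed in culture were set against the 9 other libraries of the same series, and the genes that lay above or below every one of the 9 were described. These 3 of 12 libraries were chosen by their treatment label alone (replicates 4, 5 and 10 of 2+3d-C). All 12 came from Pax7-ZsGreen mice, 3 to 6 months old per the study's methods, a transgenic strain in which Pax7-expressing cells fluoresce green, and ZsGreen+ cells of hindlimb muscle were sorted by FACS. F cells (replicates 1, 4 and 5) went into TRIzol as they were sorted. 2d-U cells (replicates 1, 2 and 3) and 5d-U cells (replicates 1, 2 and 6) were cultured for 2 and 5 days without compression. 2+3d-C cells were cultured for 2 days without and then 3 days with a pillared device on top of them. All cultures shared a growth medium with FGF and serum and a plastic surface coated with Matrigel and fibronectin, and TRIzol was added to the attached cells once medium and device were off. F cells were therefore never plated, and the time of 2+3d-C cells in culture matched 5d-U alone. The question of the comparison is which transcripts are found at a level in compressed cells that none of the other states reaches. The study states that each sorted batch of cells was divided at random between conditions. The sources do not say which libraries share animals or a sort, so the p-values measure the spread between these samples, which may in part be technical.

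MuSCs lie between a myofibre and its basement membrane and are quiescent in resting muscle. When they are released they leave quiescence, make MyoD protein, divide and then differentiate under myogenin. Dissociating muscle and sorting the cells takes hours, in which immediate-early genes, stress genes and cytokine genes of freshly isolated MuSCs are known to be induced, so a freshly sorted cell is not the same as a cell in its niche.

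Between 12540745 and 62424851 reads per library fell on annotated genes, with the shallowest and the deepest library both in 2+3d-C. Values below are CPM, a gene's reads scaled to the size of its library after TMM normalization, and those of 2+3d-C are given in the order of replicates 4, 5 and 10. CPM do not allow for gene length and are compared between libraries only. 3 reads, taken as the floor of detection for counting error alone, stand for 0.0481 to 0.239 CPM before TMM scaling. Between the compressed libraries Pearson's r of log2 CPM across genes, which are not independent replicates, was 0.877 to 0.907, against 0.869 to 0.971 between F libraries, 0.903 to 0.958 between 5d-U and 0.956 to 0.962 between 2d-U libraries. 4 of the 9 others (replicates 1 and 6 of 5d-U, 4 and 5 of F) had 0.690 to 7.28 reads per kb on gene families silent in most tissues, such as olfactory receptors, against at most 0.264 in the remaining 8 libraries. Main counts are therefore given with and without these 4.

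Of 22635 genes with enough reads for a test, 2620 were higher in 2+3d-C than in the mean of the other 3 groups and 1641 lower (edgeR's quasi-likelihood test, adjusted p under 0.05), which is 11.6% and 7.25% of those tested. Scaled by library size without TMM the split turned over, to 1601 higher and 2329 lower (40.74% of calls higher, in place of 61.49%), and DESeq2 gave 3142 and 3206 (49.5%). The median log2 fold change over all tested genes was -0.44, and -0.85 without TMM, so changes are to be read against that shift. The median of the 10766 genes that averaged 5 CPM or more was 0.17. On CPM, 692 genes (3.06%) had every compressed library above all 9 others and 870 (3.84%) had every one below. Both called and beyond the 9 were 597 genes above (2.64%) and 674 below (2.98%). These are the genes described from here on as above or below all 9. They were picked by their values, so their numbers and distances describe the libraries and support nothing further. Without the 4 libraries with silent-family reads, 1001 genes were higher and 513 lower, and 452 were called and above and 381 called and below the remaining 5.

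Most of these genes were only a short way beyond their nearest neighbour. The ratio of the lowest compressed library to the highest of the 9 had a median of 1.32 over the 597 genes and was at least 2 in 75 of them. The ratio of the lowest of the 9 to the highest compressed library had a median of 1.58 over the 674 genes and was at least 2 in 259. In 249 of the 674 every compressed library held 3 reads or fewer. The nearest library was mostly a freshly isolated one, an F library for 417 of the 597 (69.85%) and for 507 of the 674 (75.22%). A 5d-U library was nearest for 119 above and 56 below, and a 2d-U library for 61 and 111.

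Tested against each group alone, 2+3d-C exceeded F in 438 genes and fell short of it in 1011 (1.94% and 4.47% of tested genes). Against 2d-U the numbers were 3619 and 1954 (16% and 8.63%), and against 5d-U 2068 and 3042 (9.14% and 13.4%). The 3 contrasts share the compressed libraries. The numbers against F rested on single libraries, with 26 higher and 222 lower without replicate 4 of F and 1185 and 8878 without replicate 1. Of the 597 genes above all 9, 155 passed against F, 481 against 2d-U and 433 against 5d-U, and 111 passed all 3. Of the 674 below, 353, 625 and 650 passed, and 334 passed all 3. Of the called genes that were higher without being above all 9, 64 passed against F, 1816 against 2d-U and 1349 against 5d-U. Protein-coding genes made up 86.43% of the genes above, 87.69% of those below and 74.04% of all tested.

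**Figure D1:**
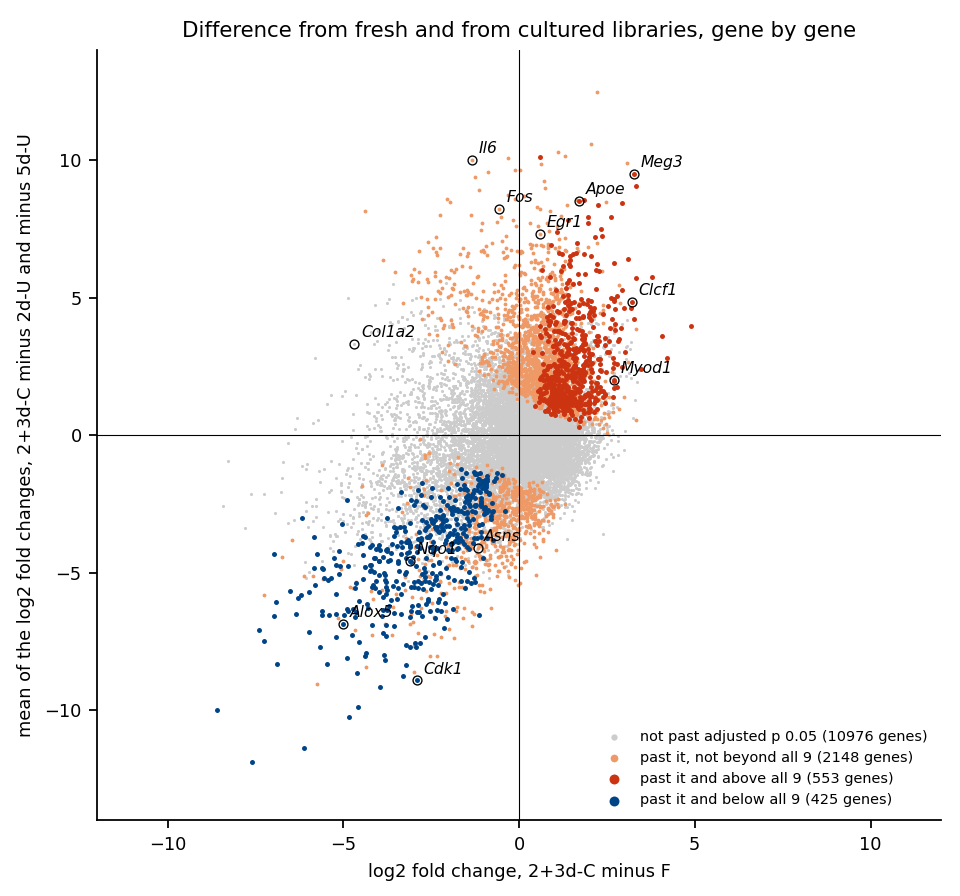
Log2 fold change of 2+3d-C against F (horizontal axis) and against the mean of 2d-U and 5d-U (vertical axis) for 14102 tested genes with more than 3 reads in some library of every group, coloured by whether a gene was called in the contrast with all 9 and lay above or below all of them. Genes above all 9 lie in the upper right and genes below all 9 in the lower left, with the named examples labelled.

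Regulatory sequence is printed for 5 genes whose transcripts carry the results that follow. Promoters, here and in all motif shares, are the 250 bases before the start site in RefSeq (build GRCm38.p6). They were found by symbol for 423 of the 597 genes above and 505 of the 674 below all 9, and capitals mark motif matches on either strand. Where a gene has several promoters, the one with the most matches is printed, so the sequences were picked for holding the motif. Nfkb2 and Tnip1, a subunit and an inhibitor of NF-kB, both above all 9, are shown for the NF-kB consensus, whose matches on opposite strands overlap.

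Nfkb2 (chr19:46304487-46304736, plus strand): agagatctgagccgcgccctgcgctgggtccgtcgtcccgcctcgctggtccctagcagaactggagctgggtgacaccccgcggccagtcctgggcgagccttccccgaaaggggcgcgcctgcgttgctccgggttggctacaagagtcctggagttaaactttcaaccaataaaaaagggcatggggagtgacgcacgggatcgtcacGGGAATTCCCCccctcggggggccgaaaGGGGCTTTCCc
Tnip1 (chr11:54962941-54963190, minus strand): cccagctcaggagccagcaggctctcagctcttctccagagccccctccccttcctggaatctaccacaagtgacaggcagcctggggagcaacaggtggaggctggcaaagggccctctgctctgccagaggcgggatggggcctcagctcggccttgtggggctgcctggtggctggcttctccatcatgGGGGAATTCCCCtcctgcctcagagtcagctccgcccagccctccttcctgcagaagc

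Arl4d, a small GTPase of the ARF family that was above all 9, holds the letters TGACGTCA of the cAMP response element, a palindrome that matches on both strands.

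Arl4d (chr11:101665291-101665540, plus strand): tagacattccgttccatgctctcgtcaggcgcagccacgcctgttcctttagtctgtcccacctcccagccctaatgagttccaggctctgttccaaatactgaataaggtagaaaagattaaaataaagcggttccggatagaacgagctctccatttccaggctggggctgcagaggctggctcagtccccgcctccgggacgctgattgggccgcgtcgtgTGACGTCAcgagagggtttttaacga

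Prc1 and Ccnb2, genes of mitosis below all 9, are shown for the letters TTTGAA, those of the cell cycle homology region, and for the CCAAT box (CCAAT). In Prc1 TTTGAA stands at -30 to -25 from the start site and CCAAT at -62 to -58. In Ccnb2 TTTGAA stands at -167 to -162, farther from the start site than every CCAAT marked there. Whether either match acts as that region was not tested. Another promoter of Prc1 holds CCAAT without TTTGAA.

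Prc1 (chr7:80294226-80294475, plus strand): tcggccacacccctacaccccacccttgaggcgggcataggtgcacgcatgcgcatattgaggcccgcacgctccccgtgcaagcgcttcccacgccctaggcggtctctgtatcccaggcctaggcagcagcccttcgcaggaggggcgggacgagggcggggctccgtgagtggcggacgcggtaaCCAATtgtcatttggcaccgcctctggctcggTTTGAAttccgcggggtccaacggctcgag
Ccnb2 (chr9:70421555-70421804, minus strand): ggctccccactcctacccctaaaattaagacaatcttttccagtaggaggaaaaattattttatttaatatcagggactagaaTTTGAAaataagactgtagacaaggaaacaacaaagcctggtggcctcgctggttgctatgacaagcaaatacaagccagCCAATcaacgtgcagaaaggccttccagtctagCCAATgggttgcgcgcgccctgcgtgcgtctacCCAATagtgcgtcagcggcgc

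Shares are of genes with a promoter found, and a gene counts if any of its promoters holds the motif. The NF-kB consensus was held by 6 of 13 genes of the NF-kB list used below (46.15%). It was held by 5.437% of genes above all 9 and 5.397% of all tested genes. Of all 32851 RefSeq promoters 3.899% held it, counted singly and so not on the same unit. The CCAAT box was held by 22 of 31 cell cycle genes (70.97%), by 48.12% of genes below all 9 and by 39.11% of all tested genes. The letters TTTGAA stood in 25.81%, 14.65% and 14.56% of the same sets. The cAMP response element was in 5.674% of genes above all 9, 2.97% of genes below and 2.515% of all tested genes. GGAATG, the motif of the TEAD factors through which YAP acts, was in 15.13%, 11.09% and 13.37%. A match is a description of the letters and not a measured site.

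The 19 genes named as farthest above all 9 included the secreted factors Clcf1, Csf2, Fgf16 and Ntn5. Clcf1 (cardiotrophin-like cytokine factor 1), a cytokine of the interleukin-6 family (ENSMUSG00000040663.9, chromosome 19 of mm10, 4214238 to 4223490, plus strand), was at 988, 939 and 561 CPM in 2+3d-C. The 9 others held 11.5 to 109.7 CPM, with F and its 57.4 to 109.7 CPM nearest, so the lowest compressed library was 5.12-fold above the highest of them. Its log2 fold change against all 9 was 4.30 (standard error 0.345, adjusted p = 2.34e-06 in edgeR's quasi-likelihood test), and it passed against F, 2d-U and 5d-U alone (adjusted p = 0.00376, 5.71e-05 and 3.01e-05). Csf2, which encodes GM-CSF, was at 5.18, 29.7 and 6.63 CPM, 4.96-fold above the highest of the 9, of which none exceeded 1.04 CPM. 12% of its exon length overlaps another gene, which counting without strand cannot separate. Gdnf, a neurotrophic factor that is not one of the 19 and was chosen after its values were seen, was at 453, 115 and 132 CPM and at 1.78 to 46.3 in the 9 (log2 fold change 3.96, standard error 0.532, adjusted p = 0.000142). Fgf16, a fibroblast growth factor, was at 8.63, 22.8 and 10.3 CPM and at most 3.3 in the 9, where 2d-U was nearest (log2 fold change 3.57, standard error 0.678, adjusted p = 0.00203). Ntn5, a member of the netrin family, was at 77.4, 152 and 82.2 CPM, 5.96-fold above the highest of the 9 (log2 fold change 4.13, standard error 0.564, adjusted p = 0.000162), with 23.4% of its exons shared with another gene.

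Among regulators of transcription, Msc (musculin), a basic helix-loop-helix repressor of myogenic genes (ENSMUSG00000025930.6, chromosome 1 of mm10, 14753346 to 14755992, minus strand), was at 719, 1325 and 550.2 CPM. It was at 77.8 to 146 CPM in F and at 0.174 to 5.09 CPM in the uncompressed cultures, so compressed and F libraries were both far above culture and the lowest compressed library was 3.78-fold above the highest F library (log2 fold change 6.61, standard error 0.622, adjusted p = 6.89e-06). Against F alone the adjusted p of Msc was 0.0515. 21.2% of its exon length is shared with another gene. Fosl1, which encodes the AP-1 subunit FRA-1, was at 389, 894 and 262 CPM and within the narrow band of 20.7 to 73.8 CPM in the 9 (log2 fold change 3.22, standard error 0.36, adjusted p = 2.81e-05). However, 57.2% of its exon length overlaps a neighbour, and reads on that shared part cannot be assigned by strand. Cebpb, a transcription factor of stress and inflammatory responses, rose from 40.7 to 166 CPM in the cultures and 833 to 1063 in F to 2697, 7464 and 2838 (log2 fold change 4.27, standard error 0.386, adjusted p = 4.73e-06), with 20.7% of its exons shared.

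Cyp26a1, the enzyme that breaks down retinoic acid (ENSMUSG00000024987.6, chromosome 19 of mm10, 37697798 to 37701536, plus strand), was at 131, 449 and 125 CPM in 2+3d-C, 29.5, 11 and 9.84 in replicates 1, 4 and 5 of F, at no read in 2d-U and at no more than 0.348 CPM in 5d-U. The lowest compressed library was 4.23-fold above the highest F library, and the gene passed against each group (adjusted p = 0.0166, 1.29e-05 and 3.62e-05). Of 18 tested genes of retinoic acid metabolism and reception, a list added after values had been seen, 3 were higher (Cyp26a1, the receptor Rarg and the synthesizing enzyme Aldh1a1) and 2 lower (another synthesizing enzyme, Aldh1a3, and Crabp1), and 1 each without the 4 libraries with silent-family reads. The 3 and 2 are 16.67% and 11.11% of the list, not far from the 11.57% and 7.25% of all tested genes. Against F alone 1 member was higher and 2 lower, with a median log2 fold change of -0.82. Crabp1, a retinoic acid binding protein, had no read in any compressed library and 1.66 to 8.22 CPM in the 9, so it was at least 4.59-fold lower with the compressed libraries set to 3 reads. The median of the list was 0.73 (0.19 with groups at the floor set to it).

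Meg3, the non-coding RNA of the maternal Dlk1-Dio3 locus (ENSMUSG00000021268.17, chromosome 12 of mm10, 109541001 to 109571726, plus strand), lay farthest above the 9. It was at 538, 671 and 552 CPM in 2+3d-C, 86.5, 49.1 and 46.3 in replicates 1, 4 and 5 of F, 1.95 to 2.22 in 5d-U and 0.0945 to 0.443 in 2d-U. The compressed libraries lay close together and 6.22-fold or more above any other (log2 fold change 7.43, standard error 0.369, adjusted p = 1.03e-07), and against F alone the log2 fold change was 3.28 (adjusted p = 0.0028). Mirg, a microRNA host transcript of the same locus, was at 9.47, 4.95 and 6.44 CPM, at most 3.05 in F and 1 in 5d-U, and had no read in 2d-U. Of 15 tested imprinted growth genes 6 were higher and 2 lower (3 and 0 without the 4 libraries with silent-family reads), and Dlk1, Meg3, Mirg and Zdbf2 were above all 9. H19, the non-coding RNA of the Igf2 locus, was below all 9, at 2.18, 0.121 and 0 CPM against 2.29 to 470.2, with the nearest library only 1.05-fold above the compressed ones (log2 fold change -5.87, standard error 1.5, adjusted p = 0.0136).

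The remaining genes named as farthest above all 9 belong to varied processes. Arl4d (ENSMUSG00000034936.2, chromosome 11 of mm10, 101665541 to 101667832, plus strand) was at 1515, 3523 and 1149 CPM, at 292, 85 and 238 in F and at 0.931 to 8.44 in the uncompressed cultures (log2 fold change 7.15, standard error 0.496, adjusted p = 1.3e-06). Pmepa1, an inhibitor of TGF-beta signalling that is itself induced by it, was at 2671, 7190.3 and 3501 CPM and at 29.1 to 923 in the 9 (log2 fold change 3.46, standard error 0.51, adjusted p = 0.000292). Vamp2, a SNARE protein of secretory vesicles, was at 213, 231 and 177 CPM and at 10.9 to 66.2 in the 9 (log2 fold change 2.68, standard error 0.343, adjusted p = 9.69e-05). Rnf180, a ubiquitin ligase, and Tenm4, a teneurin of the cell surface, shared a pattern with Msc, high in F and near 0 in the uncompressed cultures. Rnf180 was at 131, 94 and 86.9 CPM in 2+3d-C, 18 to 27.7 in F and 0 to 0.964 in the cultures. Tenm4 was at 93, 66.6 and 144, 12.3 to 23.8 and 0 to 2.44 CPM. Relt, a receptor of the TNF family, was 2.62-fold above the highest of the 9, and Hs6st3, which sulfates heparan sulfate, 3.04-fold. Snhg16, a snoRNA host gene (2.64-fold), Zfp593, a zinc finger protein (2.72-fold), and Glns-ps1 (2.49-fold) are uncertain, because 26% and 77.9% of the exons of the first pair overlap other genes and Glns-ps1 is a pseudogene that can share reads with its parent gene. All 34 genes named as farthest above or below stayed past the threshold when any 1 of the 12 libraries was left out, and 13 of them in every other setting too. 16 of the 34 lost the call with the 9 libraries as a single group, 8 under the replicate block and 6 without the 4 libraries with silent-family reads.

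**Figure D2:**
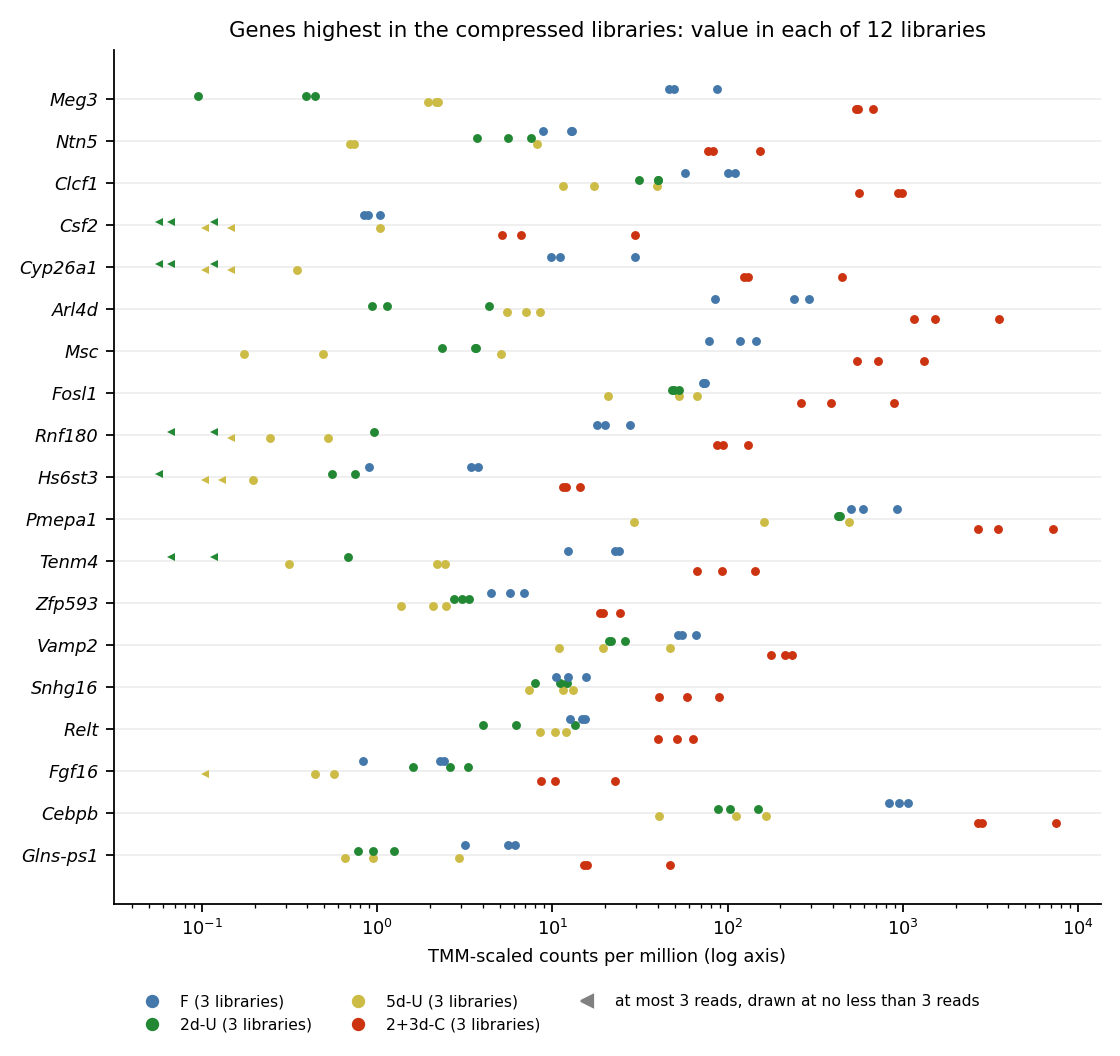
CPM (log axis) of 19 called genes farthest above all 9 other libraries, 1 point per library, 3 libraries per group, with triangles for libraries with at most 3 reads drawn at no less than the level of 3 reads. Every 2+3d-C point lies right of every other point of its gene, from the 6.22-fold distance of Meg3 down to the 2.49-fold distance of Glns-ps1.

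Listed muscle stem cell and myogenic genes went in both directions. Besides transcription factors the list holds adhesion, surface and structural genes such as Vcam1, Sdc4 and Des. Of 25 tested, 12 were higher and 3 lower, with 8 above all 9 and 2 below, and their median log2 fold change was 1.34. Without the 4 libraries with silent-family reads 9 were higher and 1 lower. Against F alone only 3 were higher (Pax7, Myod1 and Des) and 2 lower (Myog and Mef2c). Des, the intermediate filament desmin, was at 2044, 2111 and 1911 CPM in 2+3d-C and at 418 to 1180.3 in the 9 (log2 fold change 1.68, standard error 0.292, adjusted p = 0.00107). Vcam1, an adhesion protein used to sort MuSCs, was at 3345, 2541 and 1574 CPM, at 825 to 1417 in F and at 69 to 204 in the cultures (log2 fold change 3.19, standard error 0.307, adjusted p = 7.93e-06). The heparan sulfate proteoglycan Sdc4 was at 5053, 3177 and 6309, 858 to 2763 and 130.5 to 186 CPM (log2 fold change 3.75, standard error 0.321, adjusted p = 3.01e-06). The BMP binding protein Chrdl2 was at 619, 1313 and 1692, 155 to 593 and 0 to 7.67 (log2 fold change 6.32, standard error 0.812, adjusted p = 9.92e-05). For these last 3 genes the highest F library reached to within 1.15-fold of the lowest compressed one.

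Pax3, the paralogue of Pax7, was low everywhere but above all 9, at 10.5, 12.2 and 10.2 CPM against 0.332 to 4.31 (log2 fold change 2.21, standard error 0.613, adjusted p = 0.021), and its call was lost without replicates 2 or 6 of 5d-U or replicates 4 or 5 of 2+3d-C (highest adjusted p = 0.0609). Pax7 itself and Myod1 were 1.6-fold and 1.75-fold above the highest of the 9, which was a 2d-U library for Pax7 and a 5d-U library for Myod1. Myf5, the other early determination factor, was at 191, 223 and 371 CPM against 34.9 to 200.1, so the groups overlapped (log2 fold change 1.07, standard error 0.395, adjusted p = 0.0735). Six4, a homeobox factor upstream of the myogenic factors, was below all 9 at 6.28, 0.604 and 0.366 CPM against 8.28 to 20.2 (log2 fold change -2.46, standard error 0.806, adjusted p = 0.0456), a call lost without any single library but replicate 4 of 2+3d-C (highest adjusted p = 0.123). Sdc3, a proteoglycan of MuSCs, was lower at 38.6, 6.76 and 31 CPM against 23.3 to 204 with overlapping groups (log2 fold change -1.81, standard error 0.577, adjusted p = 0.0405), with a call lost without replicate 6 of 5d-U or replicate 1 of 2d-U or replicates 5 or 10 of 2+3d-C or replicates 4 or 5 of F (highest adjusted p = 0.11). Mef2d was higher at 229.9, 81.5 and 195 CPM (log2 fold change 2.10, standard error 0.364, adjusted p = 0.00102), whereas Mef2a was at 121, 49.4 and 119 CPM (log2 fold change 0.47, adjusted p = 0.407). Mef2c was at 6.64, 2.17 and 0.0914 CPM in 2+3d-C, 56 to 88.6 in F, 4.04 to 14.4 in 5d-U and unread in 2d-U, and was lower than F alone (adjusted p = 0.0331). Eya1 and Cdh15 were higher with groups that overlapped (adjusted p = 0.0306 and 0.0424). The call of Eya1 was lost without any single library but replicate 1 of F or replicate 1 of 5d-U or replicate 5 of 2+3d-C (highest adjusted p = 0.145), and that of Cdh15 without any single library but replicate 1 of F or replicate 1 of 2d-U or replicate 2 of 5d-U or replicate 5 of 2+3d-C (highest adjusted p = 0.15). Eya2, Eya4, Itga7, Met, Cxcr4 and Myf6 did not pass, with a lowest adjusted p of 0.129 among them.

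**Figure D3:**
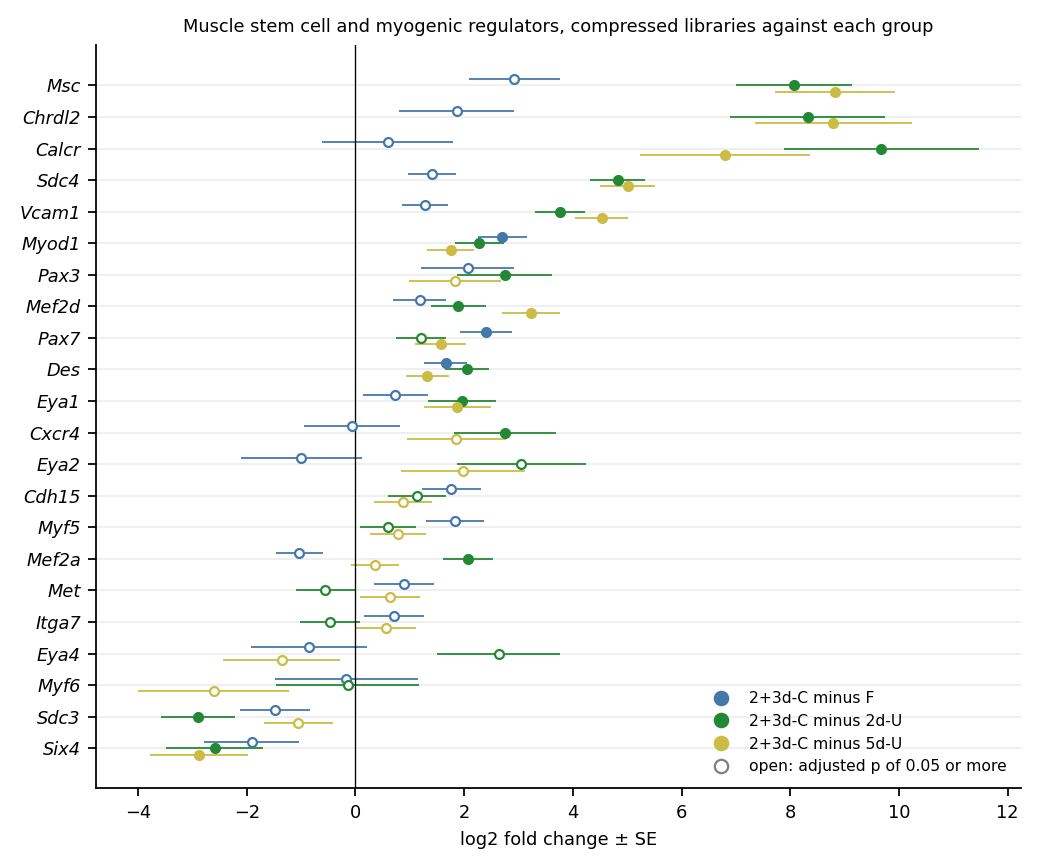
Log2 fold change of 2+3d-C against F, 2d-U and 5d-U, each with its standard error, for 22 listed muscle stem cell and myogenic genes, ordered by the change against all 9 (Myog and Mef2c are left out because 1 of their groups holds 3 reads or fewer). Msc and Chrdl2 lie right of 0 in all 3 contrasts and Six4 left of 0 in all 3.

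Nearly all NF-kB genes that were listed were higher in compressed cells. NF-kB transcription factors are dimers held in the cytoplasm by inhibitors of the IkB family, and they induce those inhibitors as well as cytokines. Of 16 tested subunits, inhibitors and targets 15 were higher and none lower in edgeR, also at an unadjusted p under 0.05, with 6 above all 9 and a median log2 fold change of 3.04. DESeq2 also gave 15 and 0, and 14 were higher without the 4 libraries with silent-family reads. The subunit gene Rela was at 1358, 892 and 926 CPM, at 454 to 507 in F and at 45.1 to 121 in the cultures (log2 fold change 2.91, standard error 0.252, adjusted p = 3.26e-06). Nfkb1 was at 848, 751 and 855, 232 to 458 and 11.6 to 35 CPM (log2 fold change 3.85, standard error 0.319, adjusted p = 2.59e-06). Compressed libraries were highest, F libraries intermediate and uncompressed cultures lowest for both. Nfkb2 was at 1075, 468 and 715 CPM and at 13.7 to 251 in the 9 (log2 fold change 2.65, standard error 0.42, adjusted p = 0.000524, 18.1% of exons shared with another gene). The inhibitor Nfkbib was at 561, 2038 and 557 CPM and at 63.9 to 246 in the 9 (log2 fold change 3.12, standard error 0.418, adjusted p = 0.000137, 16.4% of exons shared). Relb and Tnip1, named after their values were seen, were 1.46-fold and 1.13-fold above the highest of the 9. The inhibitor Nfkbia was at 2534, 7472 and 2468 CPM, so that the highest F library, at 2489 CPM, lay between them (log2 fold change 3.34, standard error 0.444, adjusted p = 0.000133). Against F alone 1 of the 16 was higher, Nfkbib (adjusted p = 0.0271), and 1 lower, Icam1, and the median log2 fold change was 0.40, in place of 3.93 against 2d-U and 4.39 against 5d-U.

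Immediate-early transcription factors, which are induced within minutes to hours of a stimulus, were mostly higher in the contrast with the 9. Of 29 tested, 24 were higher and 2 lower, with a median of 3.69, and 3 were above all 9. Those were Fosl1, Ier2 at 1453, 4564 and 1231 CPM against 108 to 729.8 (log2 fold change 3.48, standard error 0.334, adjusted p = 7.89e-06), and Myc. Myc, the growth and ribosome regulator, was at 5579, 7523 and 3491 CPM in 2+3d-C, 984 to 1970.0 in F, 417 to 463 in 2d-U and 117 to 374 in 5d-U (log2 fold change 3.49, standard error 0.365, adjusted p = 1.58e-05). It stood 1.77-fold above the highest F library and passed against F alone (log2 fold change 2.06, adjusted p = 0.0328). Egr1, at 10292, 6122 and 5395 CPM, and Fos, named after its values were seen and at 1049.6, 1740.3 and 1173 CPM, overlapped with F, which held 3475 to 7282 and 1551 to 2216 CPM. Both were far from the cultures, where Egr1 was at 8.69 to 90.5 and Fos at 1.06 to 14.9 CPM. Klf10, a factor induced by TGF-beta, was below all 9 at 84.8, 46.1 and 60.4 CPM against 105 to 217 (log2 fold change -1.43, standard error 0.33, adjusted p = 0.00757). Against F the whole list had 3 members higher and 2 lower and a median of 0.47.

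Of 18 tested genes of the interleukin-6 family and its signalling, a list added after values had been seen, 15 were higher and none lower in edgeR (1 lower at an unadjusted p under 0.05, 15 and 2 with DESeq2), with a median of 2.83. 3 were above all 9, among them Clcf1 and the feedback inhibitor Socs1. Socs1 was at 127, 426 and 96 CPM against 36.4 to 74.3 (log2 fold change 1.97, standard error 0.384, adjusted p = 0.00242), although its call was lost without replicate 5 of 2+3d-C (adjusted p = 0.0533). Of the other cytokines, Il6 lay below F and Lif and Il11 overlapped with it. Il6 was at 344, 718 and 127 CPM in 2+3d-C and at 828 to 1363 in F, Lif at 357, 80.1 and 163 and 53.2 to 127 and Il11 at 25.6, 77.4 and 2.79 and 4.12 to 5.64, all 3 named after their values were seen. The signal transducer Stat3, also named afterwards, was at 2259, 612 and 1346 CPM and 1076 to 1154 in F. Against F 2 members of the list were higher, 2 lower, and the median was -0.18.

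Of 30 tested chemokine, cytokine and prostaglandin genes 15 were higher and 3 lower (8 and 1 without the 4 libraries with silent-family reads), 1 of them above all 9 (Csf2) and 1 below. That was Il34, a ligand of the CSF1 receptor, at 5.7, 6.16 and 6.81 CPM against 8.82 to 71.9 (log2 fold change -2.23, standard error 0.395, adjusted p = 0.0012). Against F alone 8 were lower. Cxcl1, a neutrophil chemokine, was at 12929.9, 35405 and 2174 CPM in 2+3d-C, where replicate 5 stood high, and at 1906 to 8400.4 in F. Of 23 matrix proteases and inhibitors 11 were higher and none lower in edgeR (3 lower at an unadjusted p under 0.05, 11 and 3 with DESeq2), but none lay above all 9, and Plaur, the urokinase receptor, was at 1096, 4375 and 657 CPM against 151 to 1076. Of 18 genes of ERK feedback 7 were higher and 2 lower (4 and 0 without those 4 libraries). Spry1, an inhibitor of receptor tyrosine kinase signalling in MuSCs, was 1.86-fold above the highest of the 9, Dusp5 and Dusp10, phosphatases of MAP kinases, 1.19-fold and 1.13-fold, and the call of Dusp5 was lost without replicate 4 of 2+3d-C (adjusted p = 0.0529). 24.4% of the exons of Spry1 and 22.1% of those of Dusp5 overlap other genes.

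Many genes of ribosome biogenesis were higher in compressed cells, and few genes of the ribosomal proteins themselves. Ribosome biogenesis is the making of rRNA and its assembly with ribosomal proteins in the nucleolus. Of 90 tested genes of this process, a list added after values had been seen, 45 were higher and none lower in edgeR, also at an unadjusted p under 0.05, with 54 and 0 with DESeq2, and 19 and 0 without the 4 libraries with silent-family reads. 30 of the 90 were above all 9, and the median log2 fold change was 1.07. More members were higher against F (49) than against 2d-U (21) or 5d-U (23), with medians of 1.53, 0.79 and 0.69. The count against F rests on single libraries, since no more than 26 of all tested genes were higher than F without its replicate 4 and 40 without its replicate 5. Rcl1, which cleaves pre-rRNA, was at 431, 815 and 581 CPM in 2+3d-C, 107 to 146 in F, 182 to 200.1 in 2d-U and 119 to 159 in 5d-U (log2 fold change 2.00, standard error 0.263, adjusted p = 0.00012). Rrp9, a protein of the U3 small nucleolar particle, was at 485, 1125 and 591, 95.6 to 123, 209 to 227 and 210.4 to 239 CPM (log2 fold change 2.09, standard error 0.277, adjusted p = 0.000126). Rrp9 was lowest in F, and in both genes replicate 5 was the highest compressed library. The assembly factors Rrs1 and Ppan were 1.8-fold and 1.65-fold above the highest of the 9. Nucleolin (Ncl) was at 2663, 2657 and 2349 CPM and overlapped with 2d-U at 1669 to 2422 (log2 fold change 0.63, adjusted p = 0.122).

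Of 86 tested cytosolic ribosomal protein genes 2 were higher and none lower in edgeR (14 lower at an unadjusted p under 0.05, 4 and 11 with DESeq2, 0 and 2 without the 4 libraries), and their median of -0.40 stands beside -0.44 for all tested genes and 0.17 for those that averaged 5 CPM or more. Against 5d-U, however, 37 were lower, with a median of -1.52 where that of all tested genes was -1.05. Rplp0, of the ribosomal stalk, was at 1094, 2824 and 1656 CPM, 540.2 to 834 in F and 1857 to 4342 in the cultures. The 1 member above all 9, Rpl24, had 4.29, 9.91 and 2.28 CPM in 2+3d-C, shares 47% of its exon length with another gene and lost its call without replicate 5 of 2+3d-C (adjusted p = 0.126). Of 81 tested nuclear genes of oxidative phosphorylation none was higher and 18 were lower in edgeR (1 and 45 at an unadjusted p under 0.05, 1 and 40 with DESeq2, 0 and 9 without the 4 libraries), with a median of -1.12. Against 5d-U 68 of the 81 were lower (median -2.64), against 2d-U 16 (median -1.15) and against F 1 (median 0.40). Atp5b, the catalytic subunit of ATP synthase, was at 1768, 2887 and 1975 CPM, 1036 to 1221 in F and 2714 to 4818 in 5d-U. In the contrast with the 9, none of the 10 protein-coding genes of the mitochondrial genome was called in edgeR, also at an unadjusted p under 0.05, or in DESeq2. Against 2d-U, however, 6 were higher and 0 lower (median 2.97). Against 5d-U 0 were higher and 2 lower (median -2.18), and against F 0 and 0 (median -0.30). Of these genes, mt-Cytb was at 789, 1581 and 1966 CPM against 109 to 14591.

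The integrated stress response, through which cells short of amino acids or with unfolded proteins make ATF4, had members on both sides. Of 21 tested genes of the response and of amino acid supply 10 were higher and 5 lower (6 and 4 without the 4 libraries), and 6 were above all 9. Atf4 itself was at 1271, 2359.6 and 826 CPM against 274 to 609 (log2 fold change 1.92, standard error 0.333, adjusted p = 0.00103). The amino acid transporter chain Slc3a2 was at 1289, 3169 and 986 CPM against 330.3 to 710.3 (log2 fold change 2.08, standard error 0.332, adjusted p = 0.000542), and the cysteinyl-tRNA synthetase gene Cars was 1.47-fold above the highest of the 9. The 5 lower genes (Phgdh, Psat1, Psph, Shmt2 and Asns) make serine, glycine and asparagine and are themselves known targets of ATF4. Phgdh, the first enzyme of serine synthesis and named after its values were seen, was at 22.3, 26.5 and 20.7 CPM in 2+3d-C, 11.1 to 46.7 in F, 651 to 716 in 2d-U and 404 to 933 in 5d-U (log2 fold change -3.23, standard error 0.499, adjusted p = 0.000432). Asns, asparagine synthetase, likewise named afterwards, was at 9.68, 47.1 and 14.7, 40.8 to 78.7, 393 to 423 and 264 to 589 CPM (log2 fold change -3.12, standard error 0.539, adjusted p = 0.00101). Atf4 was thus above every other library, while Phgdh lay within the range of F and Asns overlapped with it.

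Of 22 tested NRF2 and glutathione genes, a list added after values had been seen, 9 were higher and 4 lower (8 and 2 without the 4 libraries with silent-family reads), with 7 above all 9 and 2 below. Gclc, the catalytic subunit of glutathione synthesis, was at 514, 281 and 376 CPM against 62.3 to 245 (log2 fold change 1.67, standard error 0.274, adjusted p = 0.000684). Gstt1, a glutathione transferase, was at 44.3, 201 and 46.9 CPM against 0.279 to 28.5 (log2 fold change 3.79, standard error 0.593, adjusted p = 0.000475). Other NRF2 targets went down. Nqo1, a quinone reductase, was at 5.59, 0 and 1.6 CPM against 14.2 to 156 (log2 fold change -4.07, standard error 0.926, adjusted p = 0.00677), and Me1, malic enzyme, at 18.5, 10.1 and 8.23 against 31 to 87.1 (log2 fold change -1.93, standard error 0.417, adjusted p = 0.00495). The ferritin chain Fth1 did not pass (adjusted p = 0.939).

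Of 36 tested YAP target, actin and lamin genes 9 were higher and 4 lower (6 and 2 without the 4 libraries), around a median of 0.03. YAP is a coactivator that reads stretch and actin tension, and lamins line the nucleus. Ccn1, a matrix protein and YAP target, was at 5578, 10719 and 3267 CPM against 411 to 2004 (log2 fold change 2.66, standard error 0.385, adjusted p = 0.000256). Ccn2, another, was at 3311, 2685 and 5305 CPM, 435 to 2355 in F and 3.82 to 149 in the cultures (log2 fold change 4.83, standard error 0.678, adjusted p = 0.000199, 23.2% of exons shared). Lmna, which encodes lamins A and C, was at 6806, 10781 and 6443 CPM against 1746 to 3589 (log2 fold change 1.65, standard error 0.289, adjusted p = 0.00108). Flnc, a filamin of muscle that crosslinks actin, was at 3112, 679 and 2141 CPM, 70.1 to 312 in F and 7.09 to 37.5 in the cultures. Flnc and Ccn1 also passed against F alone (adjusted p = 0.0284 and 0.0436). The stretch-gated channel genes Piezo1 and Piezo2, named after their values were seen, were called higher but overlapped with F. Piezo1 was at 334, 56.4 and 136 CPM and at 58 to 175 in F, with a call lost without replicate 4 of 2+3d-C (adjusted p = 0.149) and 24.6% of its exons shared with another gene. Piezo2 was at 37.1, 10.6 and 30.7 CPM, 7.95 to 23.6 in F and unread in 2d-U. Actb, cytoplasmic actin, was at 4638, 6662 and 1370.0 CPM against 10680.3 to 22859 in 5d-U and 1644 to 3728 elsewhere.

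In the Notch pathway, which keeps MuSCs quiescent, 8 of 23 tested genes were higher and 3 lower (5 and 1 without the 4 libraries). The median log2 fold change was 0.99 (0.17 with groups at the floor set to it). Against F alone 0 were higher and 0 lower, with a median of -0.55. Against 2d-U 10 were higher and 2 lower, and against 5d-U 7 and 3. The receptor gene Notch3 was above all 9 by 1.25-fold, at 458, 78.2 and 375 CPM. The ligands Dll1 and Jag2 were below all 9, Dll1 at 7.2, 8.58 and 0.137 CPM against 15.3 to 62.4 (log2 fold change -2.61, standard error 0.831, adjusted p = 0.0403) and Jag2 at 5.61, 0.362 and 5.94 against 13.9 to 70.0 (log2 fold change -2.85, standard error 0.719, adjusted p = 0.0126). The call of Dll1 was lost without replicate 2 of 5d-U or replicate 4 of 2+3d-C or replicates 4 or 5 of F (highest adjusted p = 0.0666). The effector Heyl, named after its values were seen, was at 393, 179 and 838 CPM and at 115 to 225 in F (log2 fold change 6.02, standard error 0.493, adjusted p = 2.48e-06). Hes6, which opposes Hes1 and promotes differentiation, was lower at 11.9, 10.8 and 7.81 CPM against 4.55 to 7943 (log2 fold change -5.62, standard error 1.36, adjusted p = 0.00973).

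Among smaller lists, 6 of 16 genes of the Id and BMP pathway were higher and 2 lower (3 and 0 without the 4 libraries). Bmp4, a growth factor ligand, was above all 9 at 103, 257 and 99.9 CPM against 50.2 to 59.4 in F and 0.174 to 6.48 in the cultures (log2 fold change 4.58, standard error 0.626, adjusted p = 0.000162). Id3, an inhibitor of myogenic factors, was at 1812, 6159.9 and 2052 CPM and overlapped with 5d-U, and its call was lost without replicate 2 of 5d-U or replicate 3 of 2d-U or replicate 5 of 2+3d-C or replicates 4 or 5 of F (highest adjusted p = 0.423). Of 18 heat shock genes and chaperones 8 were higher and none lower in edgeR (2 lower at an unadjusted p under 0.05, 7 and 2 with DESeq2). Bag3, a co-chaperone of mechanically strained proteins, was at 891, 1023 and 836 CPM against 33.4 to 719 (log2 fold change 2.96, standard error 0.303, adjusted p = 1.31e-05), and the ER chaperone Hspa5 at 15746, 20249 and 15439 against 5411 to 18941 in F. Of 27 lipid genes 6 were higher and 1 lower (3 and 0). Apoe, of lipoproteins, was at 1272, 3987 and 2311 CPM, 513 to 1258 in F and 1.33 to 14.3 in the cultures. The sterol regulator Srebf2 was barely above all 9, and its call was lost without replicate 4 of 2+3d-C (adjusted p = 0.0847). Of 20 p53 targets 6 were higher and 4 lower (7 and 2). The exonuclease gene Aen and the kinase gene Plk2 were 1.19-fold and 1.3-fold above all 9, and the pro-apoptotic Bbc3 and the cyclin gene Ccng1 1.31-fold and 1.6-fold below. The call of Plk2 was lost without replicate 10 of 2+3d-C (adjusted p = 0.0656), and that of Bbc3 without replicates 2 or 6 of 5d-U or replicate 2 of 2d-U or replicates 5 or 10 of 2+3d-C or replicate 4 of F (highest adjusted p = 0.0865).

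Of 36 hypoxia and glycolysis genes 12 were higher and 8 lower (4 and 6 without the 4 libraries). In the contrast with the 9, the higher genes included the hypoxia targets Vegfa, Adm, Kdm3a and Ndrg1, the glucose transporters Slc2a1 and Slc2a3 and the early glycolytic genes Hk2, Pfkp and Pfkfb3. The lower ones were the glycolytic enzymes Eno1, Tpi1, Gapdh, Ldha, Pgk1, Pkm and Pfkl and the oxygen sensor Egln3. Ndrg1 was at 1978, 1329.8 and 558 CPM, 159 to 469 in F and 1.33 to 10.8 in the cultures (log2 fold change 5.94, standard error 0.509, adjusted p = 3.01e-06). Pkm, pyruvate kinase, was at 758, 1081 and 1132 CPM, 534 to 869.7 in F and 2884 to 5373 in the cultures (log2 fold change -1.12, standard error 0.324, adjusted p = 0.0266), and Pfkl was below all 9 by 1.07-fold. The call of Pkm was lost without replicates 1, 2 or 3 of 2d-U or replicates 4, 5 or 10 of 2+3d-C (highest adjusted p = 0.149), and that of Pfkl without any single library but replicate 6 of 5d-U (highest adjusted p = 0.169). Collagens, with 13 of 44 higher and 2 lower (3 and 0 without the 4 libraries), had no member beyond all 9, and Col1a2 was at 99.2, 42.9 and 78.9 CPM, 196 to 3327 in F and 4.19 to 13.5 in the cultures. Sarcomere and fusion genes, with 1 of 27 higher and 5 lower (1 and 11 with DESeq2, 1 and 2 without the 4 libraries), had none beyond all 9 either. They differed by group, with 6 higher and 3 lower against 2d-U (median log2 fold change 1.82). Against 5d-U 0 were higher and 18 lower (median -4.97), and against F 0 and 7 (median -3.86). Chrna1, of the embryonic acetylcholine receptor, was at 67.5, 97.4 and 77.8 CPM against 1176 to 3270.5 in the cultures.

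**Figure D4:**
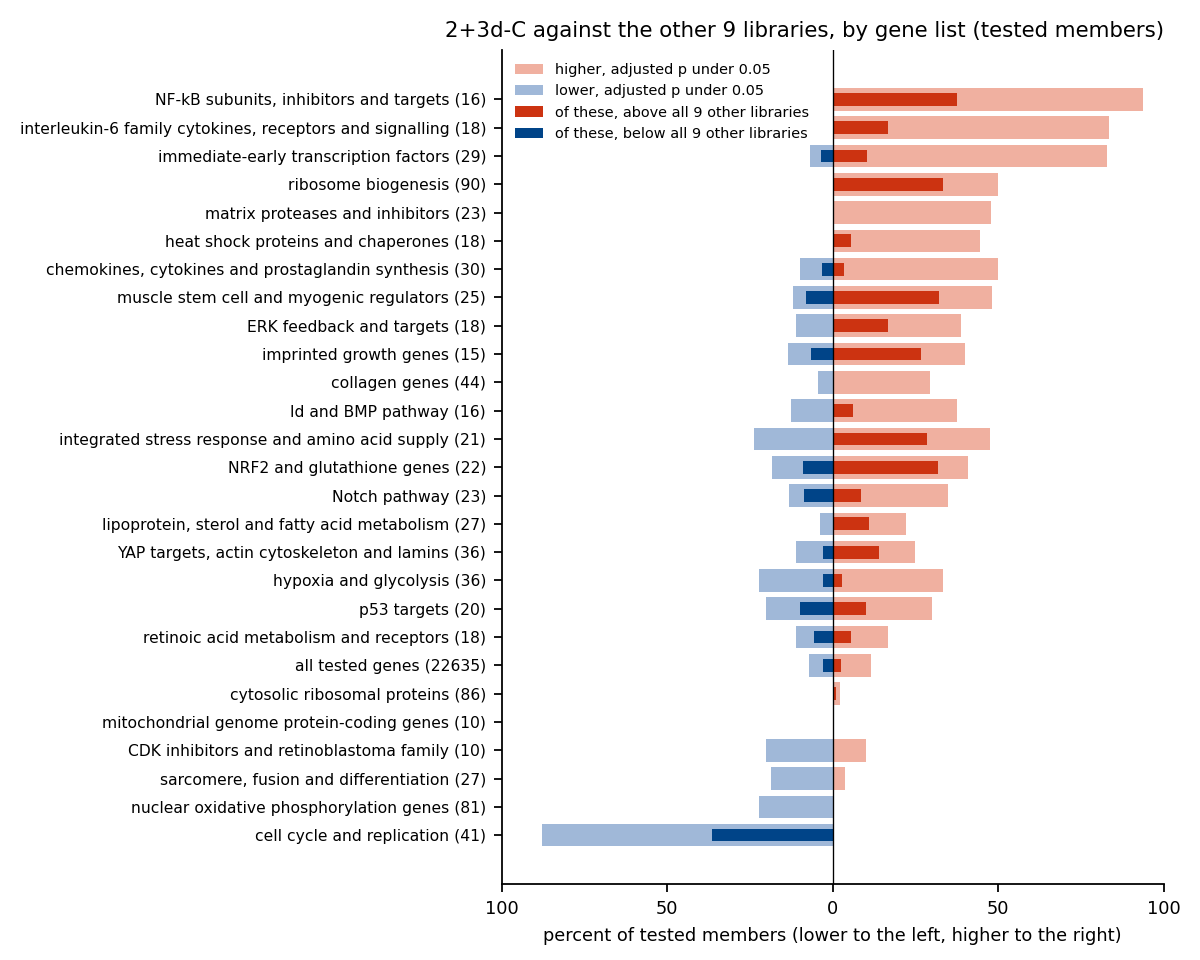
Share of tested members (percent) called higher and called lower in 2+3d-C against the other 9, and share above or below all 9, for each gene list and for all tested genes. NF-kB genes (15 of 16) and immediate-early factors (24 of 29) have large shares called higher beside the interleukin-6 family (15 of 18), cell cycle genes (36 of 41) the largest share called lower of those drawn, and all tested genes lie at 11.57% and 7.25%.

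Most listed genes of cell division were lower in compressed cells. Of 41 tested genes of the cell cycle and replication none was higher and 36 were lower in edgeR and in DESeq2 (0 and 39 in edgeR at an unadjusted p under 0.05), 15 of them below all 9, with a median log2 fold change of -3.98 (-4.61 with groups at the floor set to it). Without the 4 libraries with silent-family reads 28 were lower. Against 2d-U and 5d-U 39 were lower in each, and against F 12 were lower and 1 higher. Prc1, the microtubule bundler of cytokinesis, which is not on the list but lay farthest below all 9 (ENSMUSG00000038943.16, chromosome 7 of mm10, 80294450 to 80316259, plus strand), had 2, 0 and 0 reads in 2+3d-C, and 5.74 to 22.1 CPM in F, 203 to 247 in 2d-U and 104 to 232 in 5d-U. With libraries under 3 reads set to 3 reads, the lowest of the 9 was 15.8-fold above the highest compressed library, and the gene passed against each group (adjusted p = 0.00021, 2.14e-06 and 2.8e-06). 11.1% of its exons overlap another gene. The mitotic kinase gene Aurkb had no read in any compressed library and 3.66 to 10.3 CPM in F, which makes it at least 10.1-fold lower. The cyclin gene Ccnb2 was at 0.938, 0 and 0.137 CPM, 3.77 to 17.1 in F and 129 to 321 in the cultures (log2 fold change -7.30, standard error 0.895, adjusted p = 6.57e-05). Cenpa, the histone of centromeres, was at 1.93, 2.42 and 0.0457 CPM, 8.38 to 26.8 in F and 275 to 869 in the cultures (log2 fold change -6.72, standard error 0.938, adjusted p = 0.000189). Birc5 (survivin) was at 0.769, 0 and 0 CPM against 3.39 to 902 (log2 fold change -8.44, standard error 1.08, adjusted p = 9.75e-05), and Cdk1, named after its values were seen, at 0.731, 0 and 2.83 against 4.12 to 1188. F libraries, low themselves, were nearest for all of these. Rrm2, a subunit of ribonucleotide reductase, instead overlapped with F, at 28.5, 50.9 and 6.08 CPM against 10.2 to 143 in F and 2007 to 2859 in the cultures.

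Of 10 CDK inhibitors and retinoblastoma genes 1 was higher (Cdkn1c) and 2 were lower (Cdkn2b and Cdkn2c), with 0 and 0 without the 4 libraries with silent-family reads. The 1 and 2 are 10% and 20% of the list, beside 11.57% and 7.25% of all tested genes. Against F alone 0 were higher and 0 lower. Cdkn1a, which encodes p21, was at 542, 1795 and 764 CPM, 441 to 606 in F, 164 to 176 in 2d-U and 605 to 2735 in 5d-U (log2 fold change 1.10, adjusted p = 0.097).

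The other genes named as farthest below all 9 were low in 2+3d-C, many of them with libraries at no read. Alox5, which makes leukotrienes, was at 0.769, 0 and 0 CPM in 2+3d-C, 5.41 to 18.4 in F, 12.3 to 18.1 in 2d-U and 46.2 to 143 in 5d-U (log2 fold change -6.25, standard error 1.04, adjusted p = 0.000768). Adora2b, an adenosine receptor, was at 1.56, 0.362 and 0 CPM, 6.66 to 29.2, 39 to 59.1 and 35 to 95.3 (log2 fold change -5.78, standard error 1.01, adjusted p = 0.00107). Regulators of small GTPases and of G proteins were among them. The GTPase-activating protein gene Arhgap19 was at 1.5, 0 and 0 CPM against 8.48 to 27.4 (log2 fold change -4.80, standard error 1.17, adjusted p = 0.0105), and the GTPase-activating protein gene Chn1 at 1.24, 0 and 0.0457 against 7.24 to 132 (log2 fold change -5.83, standard error 1.05, adjusted p = 0.00141, 11.8% of exons shared). Rgs12, which switches off G proteins, was at 1.82, 0 and 0 CPM, 6.41 to 22.7 in F and 133 to 236 in the cultures. Vangl1, of planar cell polarity, was at 1.88, 0.242 and 0 CPM against 9.28 to 21.9 (log2 fold change -4.10, standard error 1.06, adjusted p = 0.0142). Ltbp2, a matrix protein of microfibrils, had at most 1 read in a compressed library and 1.81 to 31.7 CPM in the 9. Lrrn1, a leucine-rich repeat protein of the membrane, was at 0, 0.483 and 0 CPM against 5.08 to 205, and the chromatin protein Pwwp2b at 1.18, 0.362 and 0.0457 against 7.99 to 54.8. Slc25a24, a mitochondrial carrier, and the inositol phosphate kinase Ppip5k2 were 3.76-fold and 4.07-fold below the lowest of the 9. Cog6, a Golgi protein, was still read in every compressed library, at 5.44, 2.78 and 2.28 CPM against 18.9 to 45.3. In most of these genes the highest compressed library was replicate 4, the deepest, and replicates 5 and 10 often held no read.

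**Figure D5:**
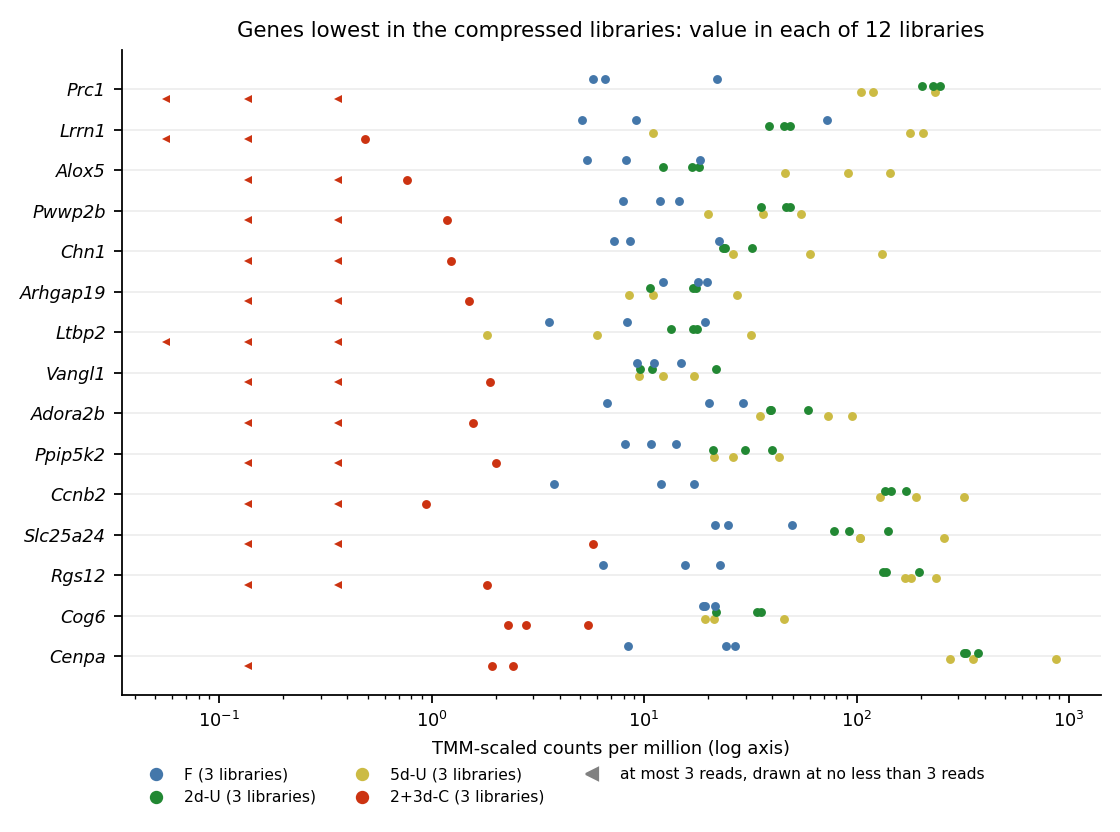
CPM (log axis) of the 15 called genes farthest below all 9 other libraries, 1 point per library, 3 libraries per group, with triangles for libraries with at most 3 reads drawn at no less than the level of 3 reads. Every 2+3d-C point lies left of every other point of its gene, from the 15.8-fold distance of Prc1 down to the 3.47-fold distance of Cenpa.

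At the bounds the groups all but touched. The 3 genes just inside above, Zfand3, Calcoco1 and Srebf2, had a lowest compressed library of 67.9, 42.8 and 228 CPM, at most 1.00057-fold above the highest of the 9. Just outside were Capn15, Med25 and Utp15, with 0.998 of the highest other library in each. Below, Anapc4, Dpp3 and Bub1b were just inside (the lowest of the 9 was 1.00978-fold above the highest compressed library for Anapc4), and Nedd1, Ctsd and Vps35 just outside (0.998, 0.995 and 0.993). The call of Calcoco1 was lost without any single library but replicate 1 of F or replicate 2 of 5d-U or replicate 5 of 2+3d-C (highest adjusted p = 0.149). Those of Med25, Ctsd and Vps35 were lost without any of 11, 10 and 11 single libraries (highest adjusted p = 0.218, 0.194 and 0.177).

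Markers of other cells were read in the compressed libraries, for most cell types at summed levels below F and above 2d-U. In bulk RNA fewer cells of a type and less RNA per cell cannot be told apart, and the part of these markers in the results above was not tested. MuSC markers summed to 14800 to 16010 CPM over 8 genes in 2+3d-C and to 1980 to 6324 in the 9, with none at 0. The 8 fibroadipogenic markers summed to 867 to 1065 CPM in 2+3d-C, 2501 to 10150 in F and 74.5 to 156.8 in the cultures, with 1 of the 8 at 0 in every compressed library. The 8 smooth muscle and pericyte markers summed to 436.8 to 816 CPM, 822 to 1132 and 64.1 to 742, the 8 endothelial markers to 260.7 to 318 CPM, 1247 to 1945 and 2.65 to 36.5, and the 7 glial markers to 190.8 to 612 CPM, 454 to 783 and 3.13 to 15.1. The 10 immune markers summed to 40.3 to 110.3 CPM, 773 to 2144 and 0.665 to 121.8, with 2 of the 10 at 0 in every compressed library. The 5 erythroid markers summed to 27.4 to 318 CPM in 2+3d-C, 160.1 to 673 in F and at most 0.391 in the cultures, and the 8 markers of mature myofibres to 43.1 to 76.7, 20.4 to 863 and 6.43 to 1056. Hbb-bs, a globin gene of red blood cells, was at 42.9, 134 and 8.18 CPM in 2+3d-C and 56.1 to 301 in F, Cd74, of antigen-presenting cells, at 3.98, 23.1 and 31.6 and 319.7 to 1049, and Pecam1, of endothelium, at 63.7, 14.1 and 31.4 and 392 to 526. Mbp, of myelin, was at 174, 527 and 112 and 245 to 506 CPM, Dcn, of fibroadipogenic cells, at 154, 439 and 186 and 1612 to 4554, Acta2 at 132, 274 and 276 and 315 to 368 and Tnnt3, of myofibres, at 12.1, 42.8 and 9.14 and 4.95 to 433. Called higher were 1 of 10 immune, 3 of 8 endothelial, 3 of 8 fibroadipogenic, 6 of 8 mural, 4 of 7 glial, 5 of 5 erythroid and 1 of 8 myofibre markers, and 6 of 8 MuSC markers. Called lower was 1 fibroadipogenic marker. Against F alone 0 markers of other cells were higher. Lower than F were 3 immune, 2 endothelial, 2 fibroadipogenic and 1 mural marker. The median log2 fold changes of these lists against F ran from -4.49 (immune) to -1.30 (erythroid). Among the markers of other cells the fibroadipogenic Dpt and the mural cell gene Notch3 were called and above all 9. Dpt, a matrix protein, was at 249, 376 and 206 CPM in 2+3d-C, 101 to 152 in F, unread in 2d-U and at most 0.245 in 5d-U.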

How the data were processed

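cDNA of 12 samples, made with SMART-Seq v4, was sequenced. The authors mapped reads to mm10 with an nf-core RNA-seq pipeline and deposited read counts per gene of GENCODE vM23, made with featureCounts 1.6.4 over exons without strand. Reads on exon bases that genes of opposite strands share can therefore not be assigned by strand. Whether such reads were counted or left out was not tested. The share of a gene's exon length that overlaps others is given where it is large. Symbols were taken from the single-library tables, because 27 differed in the merged table, whose counts were otherwise identical. The table holds 55335 genes.

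Counts were fitted in edgeR 4.0.16 (R 4.3.3) over all 4 groups, after filterByExpr and TMM, and tested by quasi-likelihood with p-values adjusted by Benjamini-Hochberg. 2+3d-C was contrasted with the mean of the other 3 group coefficients, which are on a log scale, and with each group, at an adjusted p under 0.05. Standard errors were derived from the test, as the absolute log2 fold change over the square root of its F statistic. A gene was above or below all 9 on TMM-scaled CPM. Distances set libraries under 3 reads to 3 reads. The floor covers counting error only, since the reads carry no molecular identifiers. The fit was tested on simulated counts. The genes named are the 20 above and the 15 below all 9 with the largest distance among called genes that averaged at least 10 CPM (in 2+3d-C for those above, in each other group for those below), leaving out clone and predicted names and the mitochondrial genome. To these come, of each list, up to 4 called members beyond all 9 and the one with the highest mean, all listed muscle stem cell and myogenic genes, the 3 genes on either side of each bound, and some chosen after their values were seen. A few genes that the rule names are not reported here, so 19 are named above. The members and lists were chosen with earlier results of these data known, and 4 lists were added after values were seen, as marked. Promoters came from RefSeq (GRCm38.p6). Alternatives were DESeq2 1.42.0, its size factors, library size alone, TMM without the mitochondrial genome, no filter, a mean of at least 5 CPM, 2 groups, a replicate block, a threshold of 0.01, a margin of 1.5-fold, and leaving out libraries. Libraries with equal replicate numbers showed little or no positive correlation (r of deviations -0.424 to 0.0322 over 6 pairs), which cannot exclude a shared sort.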

Additional observations from a re-analysis of the deposited data

How the results depend on the processing

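The main counts moved with the scaling and with the model. DESeq2 gave 3206 genes lower than the 9, and library size without TMM gave 1601 higher and 259 called and above all 9. With the 9 libraries as a single group, 118 genes were higher and 253 lower, and 110 were above and 240 below. Without F, 2873 were lower, and 2229 lay above and 2506 below the 6 remaining libraries. Without the 4 libraries with silent-family reads, 1001 were higher, 513 lower and 381 below. At an adjusted p under 0.01, 1447 were higher, 688 lower and 414 below, and a margin of 1.5-fold left 221 above and 349 below. DESeq2 gave 833 higher and 3325 lower against F and 3237 higher against 5d-U. A block for the replicate number, which may or may not mark a shared sort, left 715 higher and 1057 lower than the 9 with 169 above and 332 below. It left 270 and 1690 against F, 1090 and 836 against 2d-U and 728 higher against 5d-U.

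Leaving out 1 library gave 1957 to 2655 genes higher and 1218 to 1650 lower than the 9. Those above ranged from 518 to 1118 (without replicate 5 of 2+3d-C, and 958 without replicate 1 of F), those below from 584 to 1077 (without replicate 4 of 2+3d-C). Fewer libraries have to be passed in these fits, yet some counts fell below the 597 and 674 of the main fit. Against F the range was 26 to 1185 higher and 222 to 8878 lower. It was lowest without replicates 4 (26 and 222) and 5 (40 and 265) of F, 160 and 490 without replicate 5 and 270 and 601 without replicate 10 of 2+3d-C, and highest without replicate 1 of F. Against 2d-U it was 2340 (without replicate 2 of 2d-U, with 2391 when replicate 3 was left out) to 3556 higher and 1385 to 2037 lower, against 5d-U 1338 to 2222 higher and 1727 to 3045 lower, lowest without replicate 6 of 5d-U.

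Of 137 named genes that were called, 100 lost the call with 2 groups, 50 under the block, 28 without the 4 libraries, 12 without TMM and 6 without the filter, and 4 to 13 without any single library. With DESeq2, which fitted 132 of them, its size factors, TMM without the mitochondrial genome, or a mean of at least 5 CPM (130), 0 did. The cause was not tested. Besides Cd74 (-3.43 with 2 groups), the genes whose log2 fold change turned over were not called. With 2 groups these were Col1a2 (-3.11), Mef2a (-0.0296), Eya4 (-0.59), Dcn (-2.13), Pecam1 (-2.11), Mef2c (-3.10), Acta2 (-0.36) and mt-Cytb (-1.01). Under the block they were Eya2 (-0.90), Actb (0.46), Col1a2 (-2.46), Atp5b (0.12) and Itga7 (-0.38). Without TMM they were Rplp0 (-0.17), Met (-0.00977), Eya4 (-0.34), Itga7 (-0.0747), Fth1 (-0.25), Acta2 (-0.36) and mt-Cytb (-0.25). Without F Rplp0 (-0.38) and Fth1 (-0.0293) turned over, without the 4 libraries Actb (0.10), Eya4 (-0.0738), Myf6 (0.19) and Acta2 (-0.13). Acta2 was at -0.003119 with DESeq2, -0.003238 with its size factors and -0.0192 with a mean of at least 5 CPM. Without 1 library Acta2 ranged from -0.18 to 0.28, Actb from -0.57 to 0.33, Atp5b from -0.31 to 0.0595, Eya4 from -0.47 to 0.71, Fth1 from -0.56 to 0.50, Itga7 from -0.0281 to 0.72, Mef2c from -0.43 to 1.72, Met from -0.36 to 0.74, Rplp0 from -0.17 to 0.53 and mt-Cytb from -0.11 to 0.56.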
